A study of Mus musculus with 5 samples.

Results

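The genes described here were those whose transcript level was higher in every library that contained BMN than in either library without it. They were chosen by the readout itself. Each column of FPKM values (sequenced fragments divided by transcript length and by library size) was scaled to sum to 1000000 over the shared gene symbols, and a gene was a member when the lowest of its 3 BMN-containing values was at least 1.5 times the highest of its 2 other values and at least 2 on that scale. The rule picked 46 of 13979 shared symbols (0.329%). Among the 9376 symbols whose 3 BMN-containing values all reached the floor of 2, the same 46 were 0.491%. With the rule turned over, 56 of 13979 symbols (0.401%) were lower in every BMN-containing library. Because these values chose the members, the difference between the 2 kinds of library is a description and carries no test.

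RNA of LLC, a mouse Lewis lung carcinoma line, was sequenced as a single library under each of 5 conditions, which were Control, PAZA, BMN, and BMN/PAZA at a low and at a high dose. No group had a replicate, so no spread between samples could be measured and every comparison sets 1 library against another. The labels describe cultured LLC cells treated for 72 h, whereas the study's methods describe LLC tumors grown in female C57BL/6 mice of 4 to 6 weeks and taken after 5 intravenous injections given every 3 days. The low and high doses were 0.25 and 2 mg/kg of each drug, and the study's supplement names BMN alone and PAZA alone at 0.25 mg/kg in its comparisons with the low dose, while the labels give them no dose. PAZA is a polymer carrier to which the DNA methyltransferase inhibitor 5-azacytidine is conjugated, and it served as both carrier and drug in the BMN/PAZA groups. The labels give no vehicle or carrier for the BMN group. In a bulk library, fewer cells of a type and less RNA per cell cannot be told apart.

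BMN is talazoparib, an inhibitor of poly(ADP-ribose) polymerases. These enzymes bind DNA breaks and recruit repair factors, and the inhibitor both blocks their activity and holds them on the DNA, which leads to breaks at replication forks that cells repair by homologous recombination. DNA methyltransferase inhibitors remove methyl marks as cells divide and can raise the expression of silenced genes.

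The deposited tables each pair 2 libraries, and some genes had unequal values for the same library in different tables. For most symbols, 2 copies of 1 library were equal or differed by a single constant. Within a tolerance of 0.5%, 373 of 13979 shared symbols were off such a constant (2.67%), and 3 members were among them (6.52% of 46). Mia3 and Tarbp2 were among these 3. The values of these 2 in the other tables are given below, and the other 43 members had the same relative values in each table that held them.

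Sequence upstream of the transcription start is shown for members with a promoter entry whose window lay outside the annotated gene and whose values did not depend on the table. They are the 4 such members with the highest ratio (Acy3, Serpinb8, Fcer1a and Ssh3) and those that belong to marker lists of immune cells (Fcer1a, Cd209a and Chil3). Each is the 100 bases before the RefSeq start on GRCm38.p6, written 5′ to 3′ on the gene's own strand, with matches to any of 9 motif sets in capitals.
Acy3, chr19:3986470-3986569, plus strand: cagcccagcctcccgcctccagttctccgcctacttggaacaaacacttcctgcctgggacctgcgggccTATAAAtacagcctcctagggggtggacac
Serpinb8, chr1:107589906-107590005, plus strand: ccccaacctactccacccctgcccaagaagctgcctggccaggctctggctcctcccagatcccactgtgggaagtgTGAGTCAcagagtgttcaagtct
Fcer1a, chr1:173227230-173227329, minus strand: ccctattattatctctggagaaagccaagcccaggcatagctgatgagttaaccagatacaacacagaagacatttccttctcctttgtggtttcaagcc
Ssh3, chr19:4269181-4269280, minus strand: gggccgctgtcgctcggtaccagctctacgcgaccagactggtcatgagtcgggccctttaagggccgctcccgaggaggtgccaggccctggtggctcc
Cd209a, chr8:3748985-3749084, minus strand: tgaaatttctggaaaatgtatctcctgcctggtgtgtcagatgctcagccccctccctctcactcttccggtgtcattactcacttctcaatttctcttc
Chil3, chr3:106167565-106167664, minus strand: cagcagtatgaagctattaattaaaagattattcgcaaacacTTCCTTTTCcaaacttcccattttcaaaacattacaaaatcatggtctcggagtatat

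The Acy3 window held TATAAA starting at position -30, and the Serpinb8 window held the AP-1 element TGACTCA on its other strand at -23. The Chil3 window held the interferon response element GAAANNGAA on its other strand at -58. The Fcer1a, Ssh3 and Cd209a windows held none of the motifs searched. The other motifs, read on both strands with overlaps allowed, were CCAAT, the GC box GGGCGG, the E2F elements TTTCCCGC and TTTGGCGC, the E-box CACGTG, the NF-kB elements GGGACTTTC and GGGAATTTC, and the p53 half-site. In windows of 250 bases before to 50 after the start, TATAAA was present in 7.80% of the 10624 promoters of shared symbols, the AP-1 element in 3.73% and the interferon element in 7.46%. Those windows are longer than the printed ones, so these shares are on another measure. In the longer windows Fcer1a held TATAAA and CCAAT, Cd209a held TATAAA, and Ssh3 held CCAAT and the GC box. A share over the members was void as a comparison, because 34 of 46 (73.9%) had a promoter entry, fewer than the 80% required. All shared symbols, at 76.0%, were also under that limit, so the shares given describe only symbols with an entry. A match describes letters in a window and not a bound site.

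The members were mostly low-level genes with small differences. The median of the lowest BMN-containing value was 3.92 scaled FPKM over members and 14.6 over all symbols past the floor, and 30 of 46 members (65.2%) had a lowest value under 5, against 20.3% of the symbols past the floor. The ratio of the lowest BMN-containing value to the highest other value had a median of 1.7 and ran from 1.51 to 6.04. It was at least 3 for 5 members, at least 2 for 7 and between 1.5 and 1.7 for 23. The median difference in mean log2(value + 1) between the 3 libraries with BMN and the 2 without was 1.02 over members (0.62 to 2.23) and -0.02 over the symbols past the floor. No member was listed at 0 in both Control and PAZA, and H2bu1-ps was at 0 in Control alone.

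**Figure D1:**
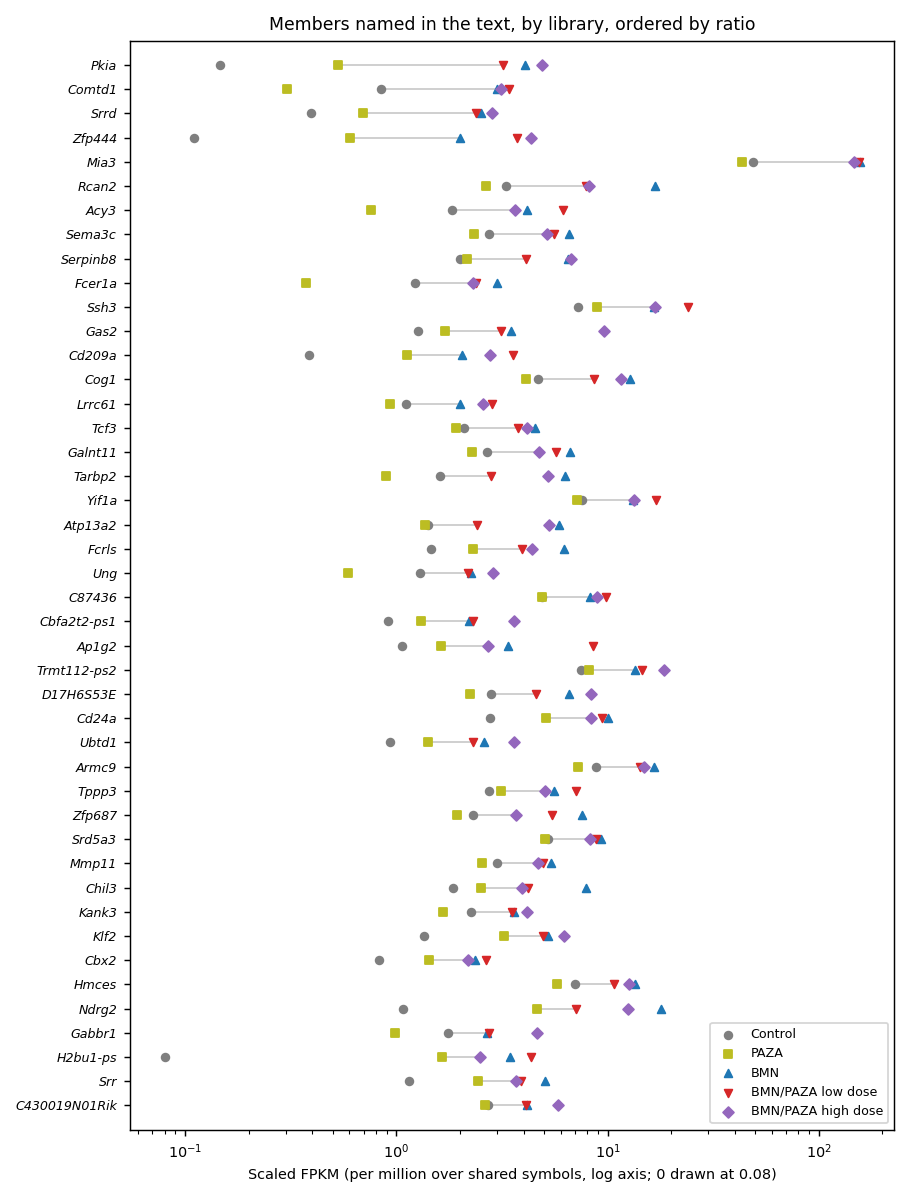
Scaled FPKM (scaled to a sum of 1000000 over shared symbols, log axis) of the members named in the text, ordered by ratio, with 1 point for each of the 5 libraries and a grey line from the highest value without BMN to the lowest value with it. The line is long for Pkia and Comtd1 at the top and short for the genes at the bottom, where the ratio is near 1.51, and most points lie under 10.

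**Figure D2:**
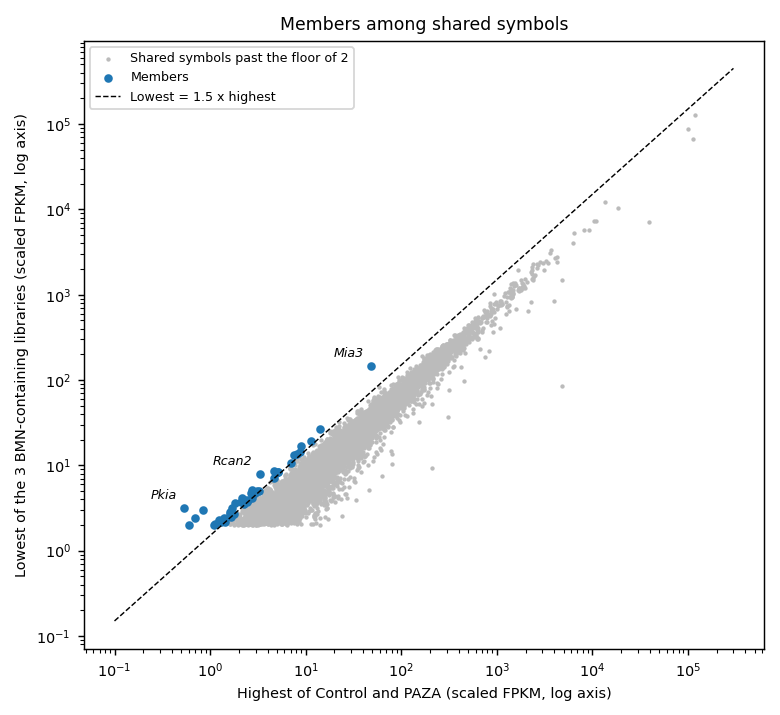
Lowest of the 3 BMN-containing values against the highest of Control and PAZA (scaled FPKM, both log axes) for members (blue) and the other symbols past the floor (grey), with the line at which the ratio is 1.5. The members lie on or above the line by construction, and Mia3 stands alone at a level above 100.

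Pkia had the largest ratio. It encodes an inhibitor of cAMP-dependent protein kinase, and lies at chr3:7366669-7445366 on the plus strand. Its scaled FPKM was 0.146 in Control, 0.530 in PAZA, 4.08 in BMN, 3.20 in BMN/PAZA low dose and 4.91 in BMN/PAZA high dose. Both libraries without BMN were under 1 and all 3 with BMN were above 3, a ratio of 6.04. The table that pairs PAZA with the low dose gave Pkia nearly the same values, 0.532 and 3.16.

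Comtd1, Srrd and Zfp444 followed among the low-level genes. Comtd1, a methyltransferase-domain protein at chr14:21845855-21848977, had 0.842 in Control, 0.302 in PAZA, 3.0 in BMN, 3.42 in the low dose and 3.14 in the high dose, a ratio of 3.56. Srrd had 0.396, 0.699, 2.51, 2.39 and 2.83 in the same order, a ratio of 3.42. In both genes the BMN-containing values lay close together, with the highest 1.14 times the lowest for Comtd1 and 1.18 times for Srrd. Zfp444, a zinc finger gene, had 0.110 in Control and 0.605 in PAZA against 2.01 in BMN, 3.74 in the low dose and 4.34 in the high dose, and its BMN value stood just above the floor of 2. Its ratio was 3.31. Comtd1 and Srrd overlap a coding gene on the opposite strand, Vdac2 and Tfip11, and the sources used here do not say whether reads were counted by strand.

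Rcan2 and Acy3 completed the members with a ratio of at least 2 and table-independent values. Rcan2, a regulator of the phosphatase calcineurin, had 3.3 in Control, 2.65 in PAZA, 16.8 in BMN, 7.88 in the low dose and 8.15 in the high dose. BMN alone was over 2-fold above each combination, and the lowest BMN-containing value was 2.38 times the highest other. Acy3, an aminoacylase and the gene of the TATAAA window above, had 1.83, 0.757, 4.16, 6.15 and 3.66 in the same order of libraries. Its highest value was in the low dose and its ratio was 2.0.

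The members were then grouped by known role, a grouping made after their values were seen. The groups were not drawn from fixed lists, so no share over all symbols stands beside them and nothing is read from their sizes. Genes of the secretory pathway, Golgi and lysosome included Mia3, Cog1, Yif1a, Ap1g2, Galnt11, Srd5a3 and Atp13a2. Mia3 (TANGO1), which loads bulky cargo such as collagen into vesicles at endoplasmic reticulum exit sites, had the highest level of any member. Its scaled FPKM was 48.6 in Control, 43.2 in PAZA, 156 in BMN, 155 in the low dose and 147 in the high dose, a ratio of 3.02. Those values depended on the table.

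In the table that pairs PAZA with the low dose, Mia3 was 108 in PAZA and 104 in the low dose, and the table that pairs the low dose with BMN also gave 104. With the PAZA value of 108 the BMN-containing values no longer reached 1.5 times the highest other value, and Mia3 left the set. The BMN and high-dose values, each held by 2 tables, did not differ between them, and Control was in 1 table only.

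The other secretory-pathway members had smaller ratios. Cog1, a subunit of the complex that tethers vesicles at the Golgi, had 4.71 in Control, 4.13 in PAZA, 12.7 in BMN, 8.6 in the low dose and 11.6 in the high dose. Yif1a, which works in transport between endoplasmic reticulum and Golgi, had 7.57, 7.17, 13.2, 17.0 and 13.3. In both genes the values without BMN were within 1.2-fold of each other. Galnt11, which starts O-glycosylation, had 2.70 and 2.28 without BMN and 4.74 to 6.64 with it. Srd5a3, needed for making the dolichol carrier of N-glycosylation, had 5.2 and 5.03 against 8.29 to 9.30. Atp13a2, a lysosomal polyamine transporter, had 1.41 and 1.37 against 5.91 in BMN, 2.41 in the low dose and 5.31 in the high dose. Ap1g2, an adaptor subunit of clathrin-coated vesicles, had 1.07 and 1.62 against 3.38, 8.55 and 2.72, so a single library, the low dose, stood well above the others.

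Members that act on transcription, chromatin, DNA or RNA came next, beside Zfp444 above. Tcf3, an E-protein transcription factor, had 2.10 in Control, 1.91 in PAZA, 4.52 in BMN, 3.76 in the low dose and 4.15 in the high dose, close together on each side. Zfp687 had 2.30 and 1.94 without BMN and 3.70 to 7.55 with it, and Cbx2, a Polycomb subunit that reads methylated histone H3, had 0.832 and 1.42 against 2.19 to 2.66. Members of DNA repair included Ung and Hmces. Ung, the uracil-DNA glycosylase that starts base excision repair, had 1.29, 0.592, 2.25, 2.19 and 2.88 in the order of libraries above. Hmces, which shields abasic sites in single-stranded DNA, had 6.98, 5.77, 13.5, 10.7 and 12.7. The ratio was 1.69 for Ung and 1.53 for Hmces, and Ung left the set under other scalings described at the end.

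Tarbp2, a partner of Dicer in microRNA processing, had 1.61 in Control, 0.893 in PAZA, 6.30 in BMN, 2.81 in the low dose and 5.25 in the high dose. Its low-dose FPKM was 1.63 times its BMN FPKM, and 136 shared symbols had that same ratio within 0.03%, where windows of the same width nearby held about 1.35. All 136 were also off a constant between tables. In the table that pairs the low dose with BMN, the low-dose value of Tarbp2 was 5.71, or 2.07 times what the constant gives. In the table that pairs PAZA with the low dose, its PAZA value was 0.827 and its low-dose value 2.77. The BMN and low-dose values of Tarbp2 in these tables are therefore linked by a number shared with other genes, and the cause was not tested.

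**Figure D3:**
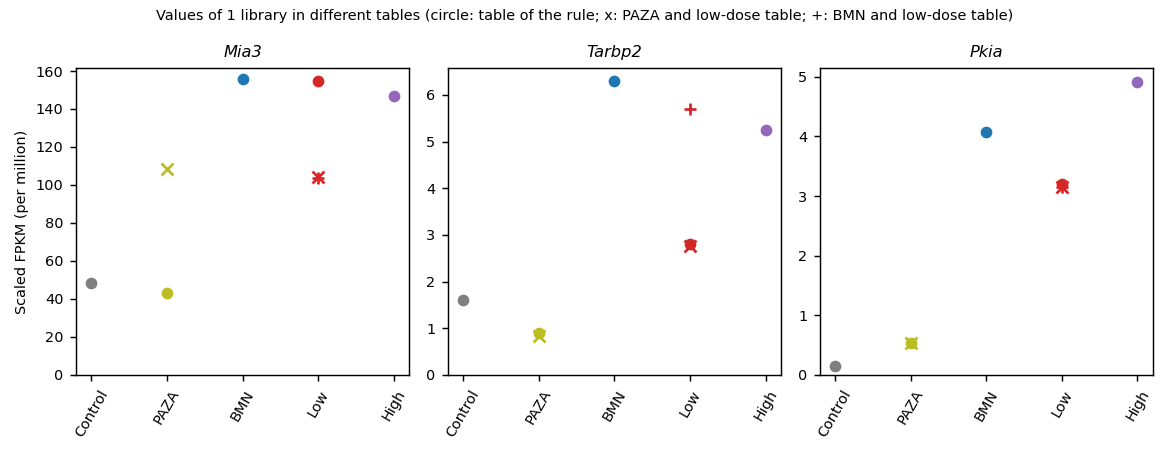
Scaled FPKM (linear axis from 0) of Mia3, Tarbp2 and Pkia by library, with circles for the tables the rule used, crosses for the table that pairs PAZA with the low dose and plus signs for the table that pairs BMN with the low dose. The symbols of 1 library part for Mia3 and Tarbp2 and coincide for Pkia, at 3.20 and 3.16 in the low dose.

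Signalling members were Pkia, Rcan2, Sema3c, Gabbr1 and Ndrg2. Sema3c, a secreted guidance ligand read by neuropilins and plexins, had 2.73 in Control, 2.34 in PAZA, 6.56 in BMN, 5.58 in the low dose and 5.17 in the high dose. Its 3 BMN-containing values were 1.27-fold apart at most, and its ratio was 1.89. Gabbr1, a subunit of the GABA-B receptor, had 1.76 and 0.991 against 2.67, 2.74 and 4.62. Ndrg2 had 1.08 in Control and 4.65 in PAZA against 17.9 in BMN, 7.10 in the low dose and 12.5 in the high dose, so its ratio was 1.53, set by the PAZA value rather than the much lower Control value.

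Members with roles in the cytoskeleton or cilium included Ssh3, Gas2, Kank3, Tppp3 and Armc9. Ssh3, a phosphatase of the actin-severing protein cofilin, had 7.20 in Control, 8.89 in PAZA, 16.7 in BMN, 24.1 in the low dose and 16.9 in the high dose. Gas2, which links actin to microtubules, had 1.27, 1.69, 3.48, 3.14 and 9.67, with the high dose 3.08 times the low dose. Kank3 had 2.26 and 1.67 without BMN and 3.52 to 4.16 with it, and Tppp3, a tubulin-binding protein, had 2.75 and 3.12 against 5.04 to 7.11. Armc9, a ciliary protein, had 8.78 and 7.26 against 14.2 to 16.6.

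Immune-cell genes among the members were Fcer1a, Cd209a, Fcrls, Chil3 and Cd24a. Fcer1a, the alpha chain of the high-affinity IgE receptor of mast cells and basophils, had 1.23 in Control, 0.373 in PAZA, 3.0 in BMN, 2.37 in the low dose and 2.31 in the high dose, a ratio of 1.88. The 6 mast cell markers summed to 23.8 in Control, 28.1 in PAZA, 101 in BMN, 33.7 in the low dose and 17.4 in the high dose. The sum in the high dose was thus below both libraries without BMN, while Fcer1a was above them, and 1 of the 6 markers was a member.

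Cd209a, a lectin of dendritic cells, had 0.386, 1.12, 2.06, 3.57 and 2.78 in the order of libraries above. Its BMN value stood just above the floor of 2, and Cd209a left the set under other scalings described at the end. The other 6 dendritic cell markers summed to 2.74, 4.02, 6.84, 5.33 and 3.40, so that the high dose lay below PAZA in this sum and above it in Cd209a. Of these 6, Xcr1, Clec9a, Flt3 and Siglech were each under 1 in every library, while Zbtb46 ran from 1.71 to 3.79 and Ccr7 from 0 to 2.16. Chil3, a chitinase-like protein of monocytes and macrophages, had 1.85, 2.51, 7.88, 4.18 and 3.91. The 6 monocyte markers summed to 900 to 1186 in the libraries with BMN and to 990 and 1153 in those without, and Fn1, which many other cells express, made up most of these sums. Without Fn1 and Chil3 the other 4 summed to 53.1 in Control, 71.7 in PAZA, 138 in BMN, 51.6 in the low dose and 60.2 in the high dose, so that BMN alone stood above the libraries without BMN. Fcrls, a receptor-like protein of macrophages and microglia, had 1.46, 2.31, 6.23, 3.92 and 4.38, and the 8 macrophage markers summed to 335 to 487 with BMN and to 418 and 445 without. Cd24a, a surface glycoprotein of epithelial and immune cells, had 2.76, 5.11, 10.1, 9.42 and 8.33. The part of these cell types in the members' values was not tested.

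**Figure D4:**
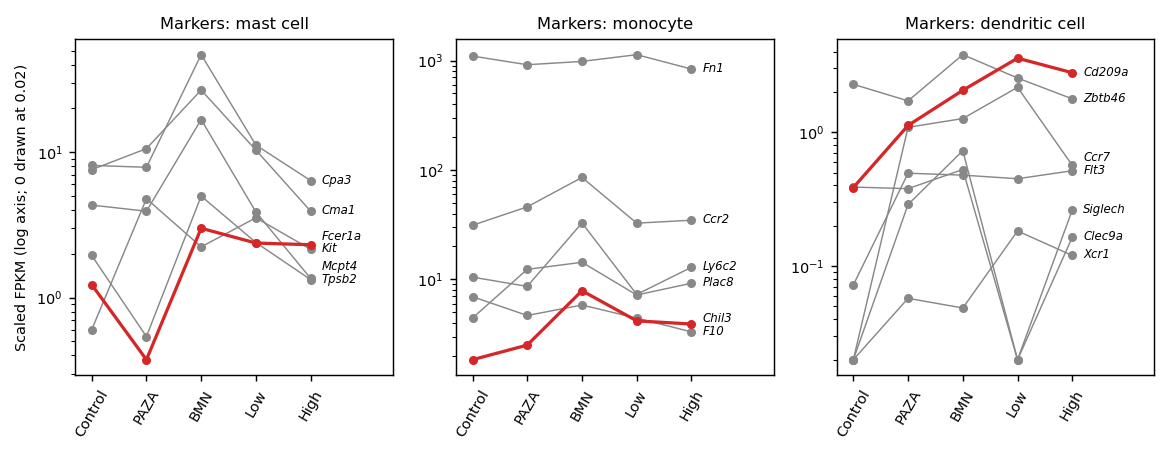
Scaled FPKM (log axis, 0 drawn at 0.02) of the mast cell, monocyte and dendritic cell markers by library, with the member of each list in red and the others in grey. The red lines for Fcer1a, Chil3 and Cd209a are higher in the 3 libraries with BMN, while most grey mast cell lines peak in BMN alone.

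Leukocyte genes were present in every library, although the labels describe LLC cells in culture. The 6 leukocyte markers summed to 141 to 214 scaled FPKM over the 5 libraries. Skeletal muscle markers also varied, with sums of 10.2 in Control, 68.2 in PAZA, 205 in BMN, 13.3 in the low dose and 235 in the high dose. Pkia and Ndrg2 are expressed in muscle among other tissues. The part of muscle in their values was not tested.

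Enzymes and proteins of the matrix and surface made up a further group. Serpinb8, an intracellular protease inhibitor and the gene of the AP-1 window, had 2.01 in Control, 2.16 in PAZA, 6.53 in BMN, 4.09 in the low dose and 6.70 in the high dose. Mmp11, a secreted metalloproteinase, had 2.98 and 2.55 against 4.68 to 5.4. Srr, which makes D-serine, had 1.15 and 2.43 against 3.68 to 5.06. Klf2 does not belong to this group and was listed with the immediate early genes. This zinc finger factor of endothelial and T cells had 1.36, 3.22, 5.2, 4.97 and 6.25, a ratio of 1.54. The 8 endothelial markers summed to 37.2 and 64.9 without BMN and to 44.4 to 58.4 with it. The 7 T cell markers summed to 20.5 in Control and 24.5 in PAZA, and to 3.08 to 11.8 with BMN. The part of these cell types in the Klf2 values was not tested.

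The remaining 8 members have roles that are little described or are not coding genes. Lrrc61 had 1.11 and 0.936 without BMN and 2.0 to 2.83 with it, Ubtd1 had 0.931 and 1.41 against 2.30 to 3.62, and D17H6S53E had 2.82 and 2.24 against 4.60 to 8.38. C87436 had 4.88 in both Control and PAZA against 8.23 in BMN, 9.78 in the low dose and 8.91 in the high dose. The processed pseudogenes Cbfa2t2-ps1 and Trmt112-ps2 had highest values without BMN of 1.31 and 8.14 and lowest values with it of 2.20 and 13.5. Reads of a processed pseudogene can be shared with its parent gene, so these values are uncertain. The histone pseudogene H2bu1-ps was at 0 in Control, 1.65 in PAZA and 2.50 to 4.34 with BMN. The transcript C430019N01Rik, which lies on the same strand within Antxr2, had 2.72 and 2.64 against 4.10 to 5.85.

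C430019N01Rik, Srr and H2bu1-ps were the 3 members nearest the threshold, with ratios of 1.51. Prkab2, Ap3s2 and Focad were nearest outside it, each at 1.49. Within 1.1-fold of the threshold there were 18 members inside and 30 symbols past the floor outside.

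The rule used the lowest of the 3 BMN-containing values but did not name which library it came from. BMN was the highest of the 3 in 19 members, the high dose in 15 and the low dose in 12. The low dose was above the high dose in 22 of 46 members (47.8%), against 67.7% of the symbols past the floor. The high dose was above BMN in 22 members (47.8%), against 23.3% of those symbols, and the low dose above BMN in 16 (34.8%), against 34.6%. These shares moved with the scaling. The mitochondrial genome took 34.4% of the summed FPKM in the high dose and 24.7% to 28.3% in the other libraries, and its part in the order was not tested. When the libraries were scaled by the median ratio, the low dose was above the high dose in 12 of 46 members (26.1%) and in 50.3% of the symbols past the floor, and the high dose was above BMN in 37 (80.4%), against 50.1%. Because the rule required the lowest of these 3 values to be high, it favoured symbols whose value in a usually lower library was raised, so the differences from the other symbols are a description of the selected genes and nothing is read from them. Among the libraries without BMN, PAZA was above Control in 22 of 46 members (47.8%), against 40.3% of the symbols past the floor.

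The 3 BMN-containing values were within 1.2-fold of each other in 9 members and within 1.5-fold in 26, and over 2-fold apart in 9. The widest were Ap1g2 at 3.14-fold and Gas2 at 3.08-fold. Rcan2, Ndrg2 and Chil3 were among those over 2-fold higher in BMN than in at least 1 combination. Control and PAZA were within 1.2-fold of each other in 17 members and over 2-fold apart in 12.

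**Figure D5:**
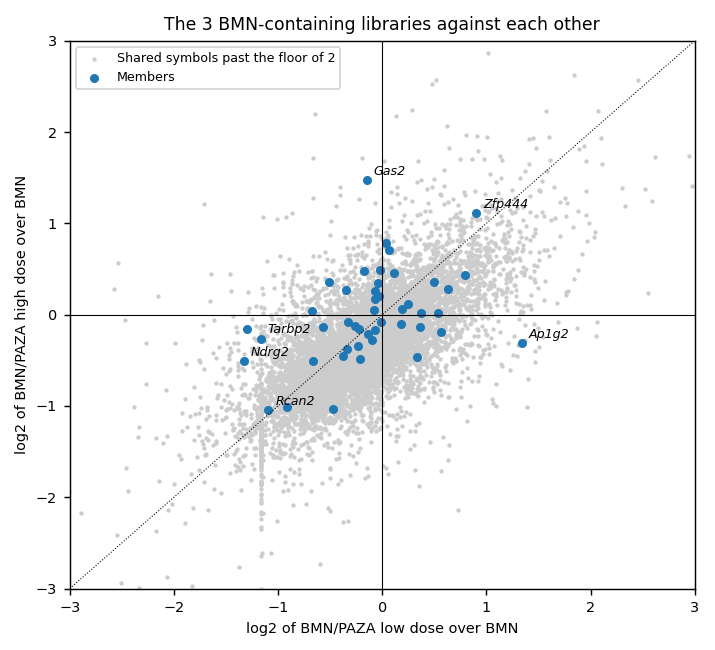
log2 ratio of BMN/PAZA high dose over BMN against that of BMN/PAZA low dose over BMN (scaled FPKM), for members (blue) and the other symbols past the floor (grey), with the dotted line at equal values. Ap1g2 and Gas2 stand apart from the other members, and the narrow vertical stripe of grey points holds Tarbp2 and the other symbols whose low dose and BMN values share the FPKM ratio of 1.63.

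Most members were in no list of known genes. Of 608 distinct list genes among the shared symbols, over 47 lists, 4 were members (0.658%), against 0.329% of all shared symbols and 0.491% of those past the floor. These were Fcer1a, Cd209a, Chil3 and Klf2, and the other 42 members were in no list. None of 27 p53 targets was a member (median log2 difference -0.05), nor was any of 29 genes of homologous recombination and the Fanconi pathway (median 0.07) or of 19 genes of PARP enzymes and poly-ADP-ribose turnover (median -0.11). None of 26 interferon-stimulated genes was a member, 4 of them were higher in mean with BMN, and the median was -0.23. Of these 26 genes 20 were off a constant between tables, as were 5 of the p53 targets, 2 of the recombination genes and 2 of the PARP genes. These values therefore carry the same limit as Mia3 and Tarbp2. At the share over all shared symbols, lists of these sizes would mostly hold no member. Nothing about these pathways is read from the absence of members.

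On the genome, 42 of the 46 members were protein-coding, 2 were processed pseudogenes, 1 was a transcript still to be verified and H2bu1-ps was matched in RefSeq alone. A coding gene overlapped on the opposite strand for 13 of 45 placed members (28.9%), against 21.2% of the symbols past the floor. Besides Comtd1 and Srrd these included Cog1, Yif1a, Ap1g2, Galnt11, Gas2, Kank3, Zfp687, Mmp11, Srr and Lrrc61. The limit on reads counted by strand holds for them too. Kank3 overlaps Rps28, which was at 292 to 422 scaled FPKM over the libraries. Close pairs of members included Acy3 and Ssh3, 0.272 Mb apart on chromosome 19, followed by Ssh3 and Yif1a, 0.819 Mb apart.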

How the data were processed

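RNA-seq values were taken from 5 tables deposited by the authors, each pairing 2 of the 5 libraries. The values the authors deposited were FPKM per gene symbol, with a unit read from the values and the tools (HISAT2 and StringTie, and the build GRCm38, are named in the submitters' processing notes, without versions). Within the tolerance of 0.5%, the copies of BMN were equal between tables, as were those of the high dose for all but 1 of 13738 symbols, whereas those of PAZA and of the low dose differed by a constant (1.01 for PAZA, up to 3.41 for the low dose) for most symbols, and the cause was not tested. No counts were given, so depth is unknown and no counting interval is stated.

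For each library 1 column was used (Control and PAZA from their shared table, BMN from its table with the high dose, the low and high doses from theirs). A repeated symbol kept the row of highest mean. Columns were scaled to a sum of 1000000 over 13979 shared symbols, and members were chosen with a fold of 1.5 and a floor of 2. Differences use log2(value + 1). The members and lists were chosen with earlier results of these data known. With 1 library per group no test was run. The genes named were the 12 with the highest ratio, the 10 with the highest level, those nearest the threshold, list members and those that differed between tables, and the other members were added after their values were seen. Members not named are counted in the totals but not reported here. Symbols were matched to GENCODE vM21 (GRCm38) and promoters to RefSeq GRCm38.p6. The rule and the check of constants were tested on simulated data. Alternatives changed the floor, fold, pseudocount, scaling, table and repeated rows. Python 3.11.15, numpy 2.4.6, pandas 2.3.3 and matplotlib 3.10.9 were used.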

Additional observations from a re-analysis of the deposited data

How the results depend on the processing

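The count of 46 members depended on the thresholds. It was 185 with no floor, 16 with a floor of 5, 7 with a fold of 2 and 21 with a pseudocount of 1. It was 85 (38 of the 46 among them) when columns were scaled to the sum without the 100 highest symbols. That scaling lowers the floor by construction. Its factors also differ between libraries, from 2.11 in BMN to 2.70 in the high dose, so the ratios change too. The count was 48 with median-ratio scaling (34 of the 46 among them), 51 with upper-quartile scaling (35 among them), and 43 to 46 with the other tables, repeated rows or symbols off a constant left out. Taking PAZA and the low dose both from their shared table, chosen after seeing the data, gave 43. Through the scalings and tables tried, 32 of 46 members stayed in, and 16 also stayed with the pseudocount. Mia3 left with the other PAZA column, and Zfp444, Cd209a, Klf2 and Ung left with median-ratio and with upper-quartile scaling. The count of members higher in the low than in the high dose went from 22 to 12 under median-ratio scaling. No paired analysis was possible because each group had 1 library, which also left no replicate to leave out. Depth is unknown, so the precision of the low values could not be stated.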
